A study of Mus musculus with 6 samples.

Results

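The genes of the AMP-activated protein kinase (AMPK) and the kinases above it were followed in interscapular brown fat of wild-type and Beclin 1 knockout mice. Members were the rows of the deposited gene table with the symbols Prkaa1, Prkaa2, Prkab1, Prkab2, Prkag1, Prkag2, Stk11, Camkk2, Rptor and Mtor. All 10 were found among 18507 genes, and all 10 passed the filter on low counts that left 15347 genes for testing. The first 6 encode AMPK subunits and Stk11 and Camkk2 encode kinases that activate AMPK. Rptor and Mtor are neither: they encode subunits of mTORC1, a kinase complex downstream of AMPK. The WT group was 3 wild-type C57BL/6 mice and the Beclin1_KO group was 3 C57BL/6 mice of genotype Beclin1-/-, which the series title calls adipocyte-specific knockouts. Transgenic mice and controls alike were gavaged with tamoxifen at 75 mg/kg on 5 consecutive days to start Cre recombination, and both were kept at 22 °C on chow. A separate treatment label reads untreated for every sample. The Cre driver, the alleles of the controls beyond wild-type, the age, the sex and the time from tamoxifen to collection are not given in the sources used here.

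AMPK is a trimer of a catalytic alpha subunit, a scaffolding beta subunit and a gamma subunit that binds AMP, ADP and ATP. When cellular energy falls, nucleotide binding to gamma lets LKB1, the product of Stk11, keep the alpha subunit phosphorylated and active, while CaMKK2 does so when calcium rises. Active AMPK restrains fat synthesis by phosphorylating acetyl-CoA carboxylase, restrains mTORC1 through raptor and tuberin, and acts on the autophagy kinase ULK1 and on Beclin 1 itself. In brown fat, AMPK is known for its part in mitochondrial upkeep and heat production. All of this acts on proteins, whereas the values here are transcripts.

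Libraries held 44269031 to 50842488 counts in WT and 50536315 to 60983193 in Beclin1_KO. Levels within a gene are given as CPM, counts relative to the library total after TMM scaling, which corrects for a few very abundant genes taking up reads. Levels between genes are given as FPKM, which is per length. Becn1, the targeted gene, fell from 86.2 ± 3.20 (SD, n = 3) to 51.5 ± 7.88 CPM (SD, n = 3; edgeR quasi-likelihood test, adjusted p = 0.00411). Whole tissue was sequenced, so fewer cells of a type and less RNA per cell cannot be told apart. All 9 brown adipocyte markers fell, their summed level going from between 14378 and 18798 CPM in WT to between 2875 and 5724 CPM in Beclin1_KO, and all 12 macrophage markers rose, from 290 to 333 CPM in WT to 5530 to 8586 CPM. All 6 fibroblast and progenitor markers rose, 5 of 6 endothelial markers fell (3 of 6 with library totals alone, and also 3 of 6 when Beclin1_KO replicate 1, Beclin1_KO replicate 2 or WT replicate 1 was left out), and of 9 lymphocyte markers 5 rose and 2 fell, with none lower when library totals alone were used, at a summed level of 5.79 to 50.4 CPM. None of these markers was at 0 in any library. The part of these shifts in the results on AMPK genes was not tested.

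Of the 10 members, 5 fell (Prkag2, Prkag1, Stk11, Mtor and Prkaa1), 0 rose and 5 did not pass (Prkaa2, Prkab1, Prkab2, Camkk2 and Rptor). A gene is said to have risen or fallen where its p, adjusted over all 15347 genes by the Benjamini-Hochberg method in the edgeR quasi-likelihood fit, lay below 0.05. By this rule 46.6% of all genes passed, 21.8% lower and 24.8% higher, so the members' 5 of 10 lies near the share of all genes and all 5 calls were downward. The median log2 fold change, Beclin1_KO minus WT, was -0.42 over the members and 0.050 over all genes tested. CPM values of both groups did not overlap for 6 members, all lower in Beclin1_KO, while 59.7% of all genes did not overlap and 28.2% did so with Beclin1_KO lower.

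Scaling decides part of this. Without composition scaling, using library totals alone, the log2 fold changes of all genes were higher by a median of 0.35, the median of all genes was 0.40, and 77.4% of all calls were upward against 53.3% with TMM. In that fit 48.7% of all genes passed, 11.0% lower, and 3 members passed, all lower (Prkag1, Prkag2 and Stk11). Prkaa1 and Mtor did not. Rptor, Camkk2 and Prkaa2 changed sign, none of them passing in either fit.

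**Figure D1:**
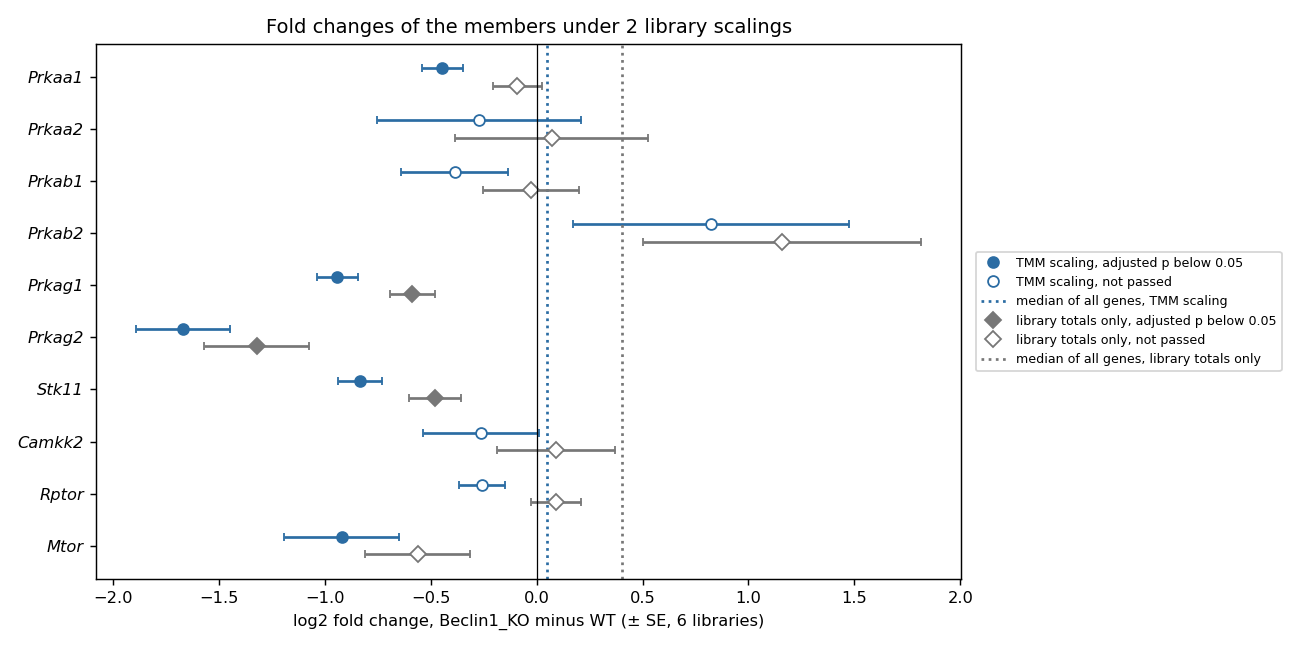
Log2 fold change (horizontal axis, Beclin1_KO minus WT, ± SE, 6 libraries) of the 10 members with TMM scaling (circles) and with library totals alone (diamonds), filled where the adjusted p was below 0.05. Dotted lines mark the median of all genes, 0.050 and 0.40, and every member moves rightward by a similar amount between the scalings.

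Stk11 had the highest level per length among the members in both groups, 82.6 ± 4.10 FPKM in WT and 59.0 ± 4.51 FPKM in Beclin1_KO (SD, n = 3). In WT it was followed by Prkag1 (55.2 ± 3.83 FPKM), and then by Prkag2 (30.5 ± 8.50), Mtor (26.5 ± 4.0) and Prkab1 (22.8 ± 3.60), whose ranges overlapped from neighbour to neighbour. Prkaa1 stood at 11.8 ± 0.871 FPKM. Rptor (8.97 ± 0.791) and Camkk2 (7.67 ± 3.01) overlapped each other and had lower means. Camkk2 reached 11.1 FPKM in WT replicate 2, within the WT range of Prkaa1. The overlapping Prkaa2 (3.27 ± 1.63) and Prkab2 (2.92 ± 1.5) were lowest. In Beclin1_KO the first and second places were the same. Prkag2 dropped 2 places (12.7 ± 2.36 FPKM), behind Prkab1 (22.3 ± 6.76) and Mtor (17.9 ± 6.13). From Prkab1 downward each neighbour in that order overlapped the next.

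**Figure D2:**
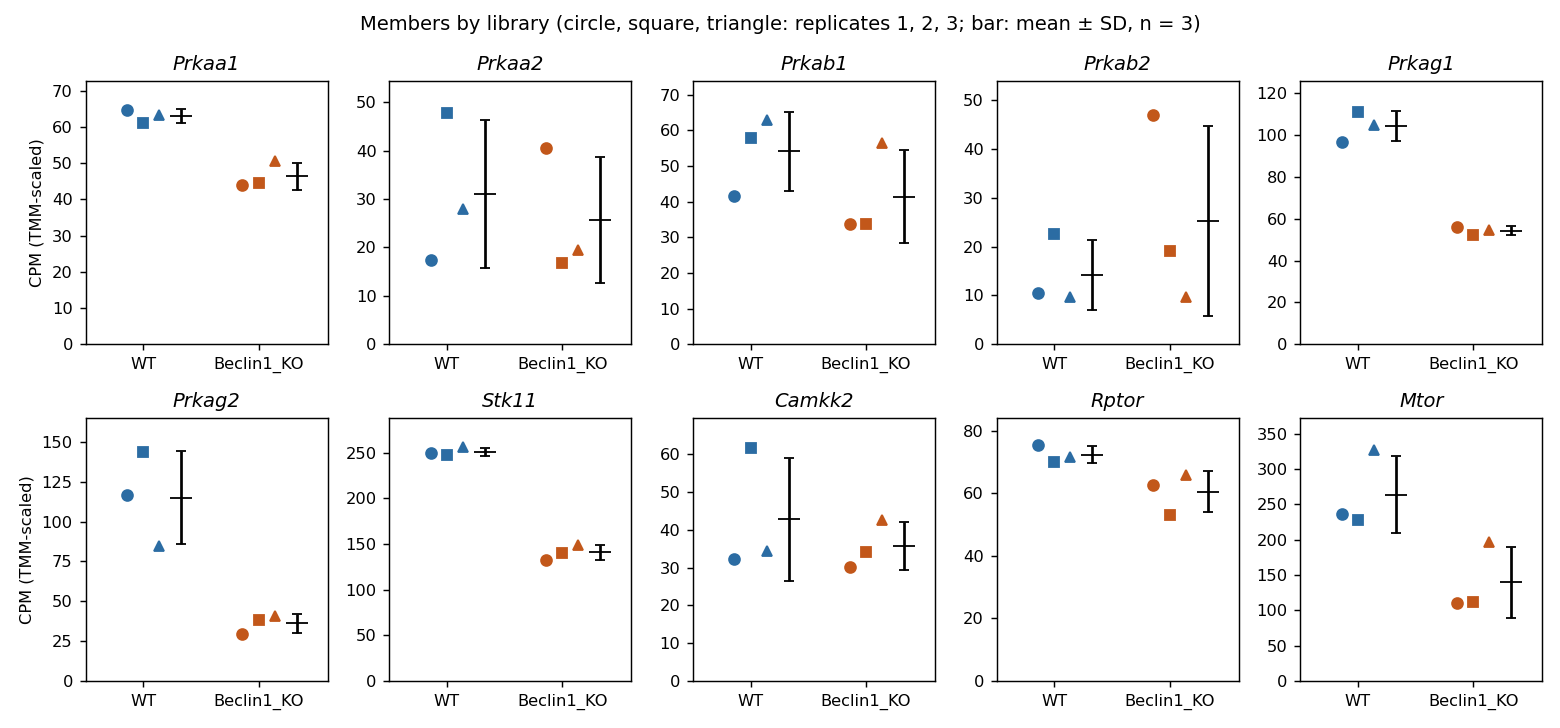
CPM of each member (vertical axes, each from 0) in the 3 WT and 3 Beclin1_KO libraries, with the mean ± SD beside them. The groups stand apart for Prkag1, Prkag2, Stk11, Prkaa1, Mtor and Rptor, and the library marked as WT replicate 2 or Beclin1_KO replicate 1 is highest in its group for Prkaa2 and Prkab2.

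The gamma subunits, which sense the nucleotides, showed the largest falls among the AMPK subunits. Prkag2 (Entrez Gene 108099, protein-coding, chromosome 5, 24862735 to 25106282, RefSeq on GRCm38) encodes gamma 2, the isoform whose human mutations cause a heart muscle disease with glycogen storage. It measured 117, 144 and 84.9 CPM in WT and 29.3, 38.1 and 41.0 CPM in Beclin1_KO. The lowest WT library was above the highest knockout library. Prkag2 was 3.18-fold lower (log2 fold change -1.67, SE 0.22, adjusted p = 0.00134). Prkag1 (Entrez Gene 19082, chromosome 15, 98812797 to 98831508) encodes gamma 1, the widely expressed isoform. It measured 96.9, 111 and 105 CPM in WT and 56.2, 52.1 and 54.6 CPM in Beclin1_KO, so each group was tight and they lay far apart. Prkag1 was 1.92-fold lower (log2 fold change -0.94, SE 0.10, adjusted p = 0.000482). FPKM carry no TMM correction, and on log2(FPKM + 1) the changes were -1.18 for Prkag2 (limma, adjusted p = 0.00591) and -0.58 for Prkag1 (adjusted p = 0.00267). In that fit 53.0% of all genes passed, 13.7% lower.

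Part of the exon sequence of both gamma genes lies opposite another gene. In GENCODE M21 the antisense gene B130046B21Rik covers 950 of the 2175 exon bases of Prkag1, and Prkag2os2 and Prkag2os1 cover 795 and 142 of the 6480 exon bases of Prkag2. Prkag2os1 had 1 to 46 counts per library, and the other antisense genes are not analysed here. The library kit marks strand, but whether the counting used it is not given, so reads from these stretches cannot be assigned with certainty.

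Prkag3, the remaining gamma gene and the one best known from fast skeletal muscle, is not among the members. It measured 0.387, 8.30 and 0.784 CPM in WT and 10.5, 1.70 and 0.575 CPM in Beclin1_KO. WT replicate 2 and Beclin1_KO replicate 1 stood far above the rest, and the groups overlapped (log2 fold change 0.43, SE 1.51, adjusted p = 0.837). Leaving out WT replicate 2 gave Prkag3 a log2 fold change of 2.84 (adjusted p = 0.164).

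The catalytic alpha subunits did not share the size of that fall. Prkaa1 (Entrez Gene 105787, chromosome 15, 5143861 to 5181899) encodes alpha 1. It measured 64.8, 61.1 and 63.4 CPM in WT and 43.9, 44.4 and 50.7 CPM in Beclin1_KO, without overlap. Prkaa1 was 1.36-fold lower (log2 fold change -0.45, SE 0.10, adjusted p = 0.00888). This call rests on the scaling: with library totals alone the log2 fold change was -0.092 (adjusted p = 0.534), and on the FPKM scale the groups overlapped, at 12.8, 11.5 and 11.1 against 10.1, 11.1 and 11.9 FPKM. Prkaa1 also missed the threshold without the most muscle-rich library of either group (log2 fold change -0.43, adjusted p = 0.0685), and it passed in 14 of 19 alternatives (adjusted p = 0.00126 to 0.534).

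Prkaa2 (Entrez Gene 108079, chromosome 4, 105029649 to 105109898) encodes alpha 2, the main catalytic subunit of skeletal muscle. It measured 17.4, 47.7 and 27.9 CPM in WT and 40.6, 16.9 and 19.6 CPM in Beclin1_KO. The highest libraries, WT replicate 2 and Beclin1_KO replicate 1, exceeded the lowest of their own group by more than the group means differed (log2 fold change -0.27, SE 0.48, adjusted p = 0.674).

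The beta subunits, which hold the trimer together and carry a glycogen-binding module, did not pass. Prkab1 (Entrez Gene 19079, chromosome 5, 116013586 to 116024503) encodes beta 1 and measured 41.7, 57.8 and 63.0 CPM in WT and 33.8, 33.8 and 56.6 CPM in Beclin1_KO. Beclin1_KO replicate 3 lay within the WT range and the other knockout libraries lay below it (log2 fold change -0.39, SE 0.25, adjusted p = 0.252). Without Beclin1_KO replicate 3 Prkab1 passed (log2 fold change -0.68, adjusted p = 0.0292). Prkab2 (Entrez Gene 108097, chromosome 3, 97658211 to 97673812) encodes beta 2, the muscle-rich isoform, and measured 10.5, 22.5 and 9.74 CPM in WT and 47.0, 19.1 and 9.68 CPM in Beclin1_KO. Its knockout libraries spanned the whole WT range and beyond (log2 fold change 0.82, SE 0.65, adjusted p = 0.349). Leaving out Beclin1_KO replicate 1 gave Prkab2 a log2 fold change of 0.016 (adjusted p = 0.984).

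Added per length, the 2 gamma genes stood at 86.4, 97.4 and 73.2 FPKM in WT and 46.7, 50.9 and 50.5 FPKM in Beclin1_KO, without overlap. The summed alpha genes stood at 14.7, 16.6 and 13.8 FPKM in WT and 15.4, 13.5 and 14.5 FPKM in Beclin1_KO. The summed beta genes stood at 20.9, 29.3 and 26.9 FPKM in WT and 29.4, 24.4 and 32.5 FPKM in Beclin1_KO. Both of these sums overlapped between the groups. Gamma transcripts were thus the most abundant of the 3 subunit kinds in every library.

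**Figure D3:**
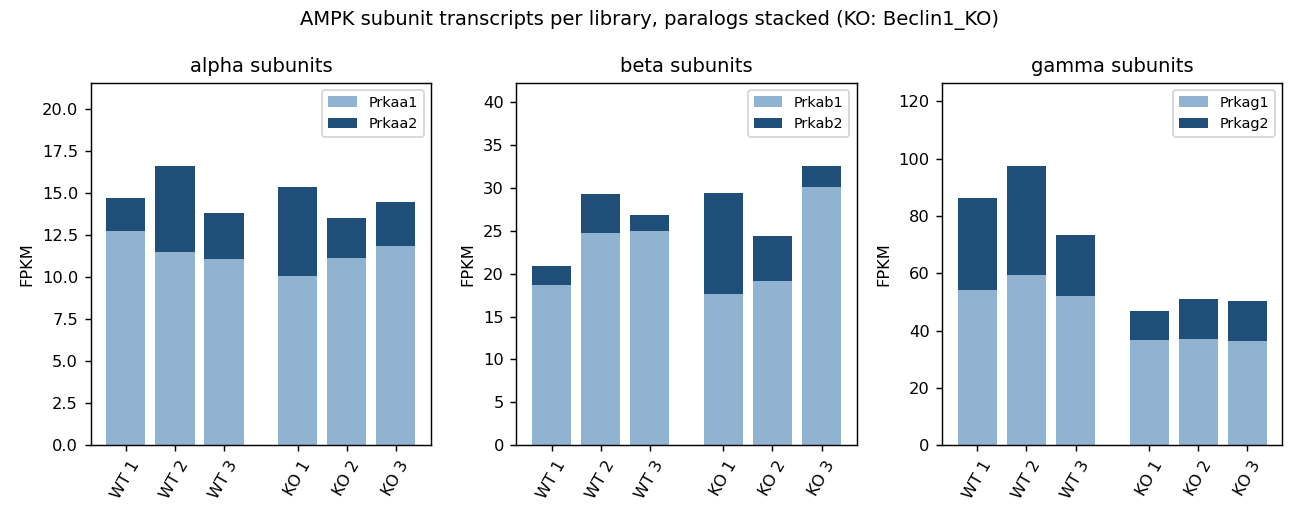
FPKM (vertical axes, each from 0) of the alpha, beta and gamma genes per library, with the paralogs stacked. The gamma bars are shorter in all 3 Beclin1_KO libraries (46.7 to 50.9 FPKM) than in WT (73.2 to 97.4 FPKM), while alpha and beta bars overlap between groups.

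Ratios between paralogs within a library do not depend on library scaling. Prkag2 supplied 37.3%, 38.9% and 28.9% of the summed gamma FPKM in WT and 21.3%, 27.4% and 28% in Beclin1_KO, without overlap. The log2 ratio of Prkag2 to Prkag1 was lower by 0.65 on the log2 scale in Beclin1_KO (-0.90 ± 0.35 in WT, -1.55 ± 0.29 in Beclin1_KO, SD, n = 3, exact two-sided permutation test p = 0.1, adjusted p = 0.2 over 4 ratios). The smallest p that 3 against 3 libraries can give is 0.1. Prkaa2 supplied 13.3%, 30.7% and 20.0% of the alpha FPKM in WT and 34.4%, 17.7% and 18.0% in Beclin1_KO (exact permutation p = 0.7, adjusted p = 0.7). Prkab2 supplied 10.8%, 15.8% and 6.92% of the beta FPKM in WT and 40.1%, 21.4% and 7.60% in Beclin1_KO (exact permutation p = 0.4, adjusted p = 0.533). The alpha and beta shares overlapped between the groups, with 1 library of each group well above the rest.

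Those libraries were also the ones with the most skeletal muscle transcripts. The summed level of 14 skeletal muscle markers was 640, 19823 and 1334 CPM in WT replicates 1, 2 and 3 and 35955, 8363 and 1452 CPM in Beclin1_KO replicates 1, 2 and 3. Of these 14 markers 0 passed between the groups by edgeR, with 0 at an unadjusted p below 0.05, none was at 0 in any library, and their median log2 fold change was 1.08, which became -0.60 without Beclin1_KO replicate 1 and 3.95 without WT replicate 2. Prkaa2, Prkab2 and Prkag3 were each highest within their group in WT replicate 2 and Beclin1_KO replicate 1. Prkag2 and Camkk2 were also highest in WT replicate 2 among WT, but not in Beclin1_KO replicate 1, which was lowest of all 6 libraries for both. Without these libraries, 2 against 2, Prkag2 fell (log2 fold change -1.35, adjusted p = 0.00968), as did Prkag1 (-0.92, adjusted p = 0.00997) and Stk11 (-0.81, adjusted p = 0.0214). The difference in the log2 ratio of Prkag2 to Prkag1 was then -0.36, against -0.65 with all 6 libraries.

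**Figure D4:**
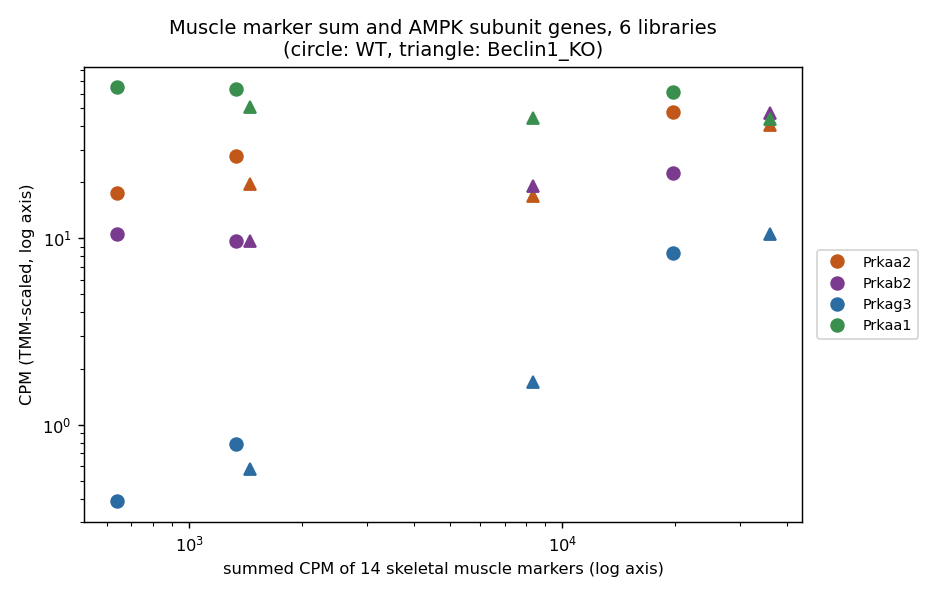
CPM of Prkaa1, Prkaa2, Prkab2 and Prkag3 (vertical log axis) against the summed CPM of 14 skeletal muscle markers (horizontal log axis) in 3 WT libraries (circles) and 3 Beclin1_KO libraries (triangles). Prkag3 spans 0.387 to 10.5 CPM and is highest at the 2 highest muscle sums, whereas Prkaa1 stays between 43.9 and 64.8 CPM.

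Of the kinases that activate AMPK, Stk11 fell and Camkk2 did not pass. Stk11 (Entrez Gene 20869, chromosome 10, 80115767 to 80130679) encodes LKB1, a tumour suppressor kinase. It measured 250, 247 and 256 CPM in WT and 133, 140 and 149 CPM in Beclin1_KO, with little spread in either group and a wide gap between them. Stk11 was 1.78-fold lower (log2 fold change -0.83, SE 0.10, adjusted p = 0.00101). With library totals alone the log2 fold change was -0.48 (adjusted p = 0.0153). The gene Cbarp, on the other strand, covers 232 of the 4580 exon bases of Stk11 and had 69 to 980 counts per library, against 7322 to 11081 for Stk11.

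Camkk2 (Entrez Gene 207565, chromosome 5, 122718380 to 122779522), the calcium-dependent activator, measured 32.4, 61.6 and 34.4 CPM in WT and 30.2, 34.0 and 42.7 CPM in Beclin1_KO. WT replicate 2 stood above all others and the remaining 5 libraries mixed (log2 fold change -0.26, SE 0.27, adjusted p = 0.473). Leaving out WT replicate 2 gave Camkk2 a log2 fold change of 0.085 (adjusted p = 0.726).

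LKB1 works in a complex with a STRAD pseudokinase and an MO25 scaffold. Of 7 genes for these partners and for other kinases reported to activate AMPK, 2 fell, 1 rose and 4 did not pass. Among all genes 21.8% fell and 24.8% rose. The median log2 fold change was -0.18 against 0.050 over all genes (0.18 against 0.40 with library totals alone). Stradb, a STRAD gene, was 1.54-fold lower (79.0 ± 7.12 to 51.1 ± 8.61 CPM, adjusted p = 0.0134) and Cab39l, an MO25 gene, 1.69-fold lower (60.7 ± 11.1 to 35.9 ± 4.10 CPM, adjusted p = 0.00883). Camkk1, the paralog of Camkk2, rose from 2.1 ± 0.240 to 4.90 ± 1.24 CPM (adjusted p = 0.00905). Map3k7, which encodes the kinase TAK1, stood at 76.0 ± 3.95 and 67.2 ± 5.68 CPM (adjusted p = 0.196). Stradb and Cab39l did not pass with library totals alone (adjusted p = 0.136 and 0.0584), and without the most muscle-rich library of either group none of the 7 passed by edgeR. In that 2 against 2 fit 31.8% of all genes passed, against 46.6% with all libraries. The log2 fold changes there were -0.63 for Stradb, -0.65 for Cab39l and 1.05 for Camkk1, against -0.63, -0.76 and 1.22 with all libraries.

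LKB1 also activates a family of AMPK-related kinases. Of 12 such genes 3 rose (Brsk1, Mark1 and Nuak2), 5 fell (Brsk2, Mark2, Mark3, Sik2 and Snrk) and 4 did not pass, with a median of -0.26. The share of all genes that passed was 46.6%, 24.8% higher and 21.8% lower. Nuak2 rose 3.87-fold, from 3.33 ± 0.625 to 12.9 ± 0.851 CPM, and Mark1, a microtubule-affinity kinase, rose 3.23-fold, from 5.14 ± 0.135 to 16.6 ± 4.11 CPM. Brsk1 rose 2.88-fold from 1.55 ± 0.227 to 4.48 ± 0.967 CPM. Brsk2, its paralog, fell from 1.3 ± 0.652 to 0.171 ± 0.0272 CPM. This is a low level, at 0.140 to 0.192 CPM in the Beclin1_KO libraries. Only 16 of the 19 alternatives tested Brsk2, and it passed in those. With library totals alone 3 rose, 2 fell and the median was 0.088. In that fit 11.0% of all 15347 genes fell, 5787 rose and their median was 0.40.

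Among the partners of AMPK that link it to the lysosome, Fnip2 rose 3.47-fold, from 18.0 ± 3.35 to 62.4 ± 8.39 CPM, and Fnip1 stood at 36.4 ± 4.39 and 40.3 ± 2.68 CPM (adjusted p = 0.369), passing as higher with library totals alone (0.014). Both encode proteins that bind folliculin. The folliculin gene Flcn itself was 2.05-fold lower (236 ± 62.5 to 115 ± 37.4 CPM, adjusted p = 0.0261). Leaving out single libraries took the adjusted p of Flcn to 0.0777 (WT replicate 1), 0.0708 (WT replicate 2), 0.0644 (Beclin1_KO replicate 1) and 0.0834 (Beclin1_KO replicate 3), and library totals alone took it to 0.135.

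Rptor and Mtor moved unequally. Mtor (Entrez Gene 56717, chromosome 4, 148448582 to 148557685), the catalytic subunit of both mTOR complexes, measured 237, 228 and 327 CPM in WT and 110, 112 and 197 CPM in Beclin1_KO. Replicate 3 was highest in each group, and the highest knockout library remained below the lowest WT library. Mtor was 1.89-fold lower (log2 fold change -0.92, SE 0.27, adjusted p = 0.0305). Leaving out single libraries gave adjusted p-values for Mtor of 0.053 (WT replicate 1), 0.0943 (WT replicate 3), 0.0856 (Beclin1_KO replicate 1) and 0.1 (Beclin1_KO replicate 2), none of which passed. Nor did Mtor pass without the most muscle-rich library of either group (0.108) or with library totals alone (0.0981). Of the 19 alternatives, 10 kept Mtor below the threshold (lowest 0.003, highest 0.108).

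Rptor (Entrez Gene 74370, chromosome 11, 119602905 to 119899591) encodes raptor, the mTORC1 subunit that AMPK phosphorylates. It measured 75.4, 70.1 and 71.6 CPM in WT and 62.7, 53.1 and 65.8 CPM in Beclin1_KO. The groups did not overlap in CPM, yet the difference did not pass (log2 fold change -0.26, SE 0.11, adjusted p = 0.0953), and with library totals alone it had the other sign (0.091, adjusted p = 0.548). The log2 ratio of Rptor to Mtor was -1.56 ± 0.30 in WT and -0.86 ± 0.39 in Beclin1_KO (SD, n = 3), higher in Beclin1_KO by 0.70 without overlap (exact two-sided permutation test p = 0.1, adjusted p = 0.2).

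For the other subunits of the mTOR complexes, Mlst8, Mapkap1 and Prr5l passed and 4 genes did not, near the 46.6% of all genes that passed. Of the 3 further mTORC1 genes, Mlst8, the subunit shared by both complexes, was 1.45-fold lower (32.5 ± 2.39 to 22.4 ± 1.28 CPM, adjusted p = 0.0063), though not with library totals alone (adjusted p = 0.319). Akt1s1 stood at 89.0 ± 6.92 and 80.7 ± 5.45 CPM (adjusted p = 0.312), and the inhibitor gene Deptor at 297 ± 138 and 175 ± 44.1 CPM (adjusted p = 0.145, and 0.0252 without WT replicate 1). Of 4 mTORC2 genes Mapkap1 fell and Prr5l rose, and neither passed without the most muscle-rich library of either group (adjusted p = 0.126 and 0.13), without WT replicate 2 (0.0529 and 0.0598), WT replicate 3 (0.0772 and 0.0681) or Beclin1_KO replicate 1 (0.0734 and 0.0536). Mapkap1 also missed the threshold without Beclin1_KO replicate 2 (adjusted p = 0.089) and with library totals alone (0.674). Rictor, the defining mTORC2 subunit, stood at 23.8 ± 4.14 and 21.7 ± 0.986 CPM (adjusted p = 0.491).

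Of 21 genes that regulate mTORC1, 7 fell, 1 (Sesn1) rose and 13 did not pass, with a median of -0.21, while with library totals alone 4 fell, 5 rose and the median was 0.15. Nprl2, a subunit of the GATOR1 brake on amino acid signalling, fell 1.93-fold from 34.8 ± 1.61 to 18.1 ± 0.464 CPM. Tbc1d7, a subunit of the tuberous sclerosis complex, fell 2.1-fold from 22.0 ± 1.48 CPM, whereas Tsc2 stood at 176 ± 17.6 and 152 ± 19.6 CPM (adjusted p = 0.266). The Ragulator genes Lamtor2 and Lamtor4 fell 1.82-fold and 1.6-fold. Of 8 mTORC1 substrate genes 3 fell, 1 rose and 4 did not pass, with a median of -0.21, while with library totals alone 2 fell, 3 rose and the median was 0.15. Beside both lists, 21.8% of all genes fell and 24.8% rose, and the median of all genes was 0.050. In the fit with library totals alone, 11.0% of all 15347 genes fell, 5787 rose and their median was 0.40. Eif4ebp1, the translation repressor, fell 2.36-fold, from 248 ± 7.89 to 105 ± 22.6 CPM (adjusted p = 0.00142).

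Direct substrates of AMPK fell more often than they rose. Of 18 substrate genes, 8 fell, 2 rose (Tbc1d1 and Foxo3) and 8 did not pass, with a median of -0.51 against 0.050 over all genes. Among all genes 46.6% passed, 21.8% lower and 24.8% higher. With library totals alone 6 substrate genes fell and 3 rose, while 11.0% of all 15347 genes fell and 5787 rose. The median was then -0.16 against 0.40 over all genes. Leaving out WT replicate 3 took the adjusted p of Tbc1d1 to 0.0663 and of Foxo3 to 0.0588. Acaca, the acetyl-CoA carboxylase gene that AMPK inactivates at the protein level, fell 19.2-fold from 3801 ± 1847 to 198 ± 51.1 CPM (adjusted p = 0.000546). Pfkfb3, whose enzyme raises the glycolytic activator fructose-2,6-bisphosphate, fell 5.70-fold, the lipase gene Lipe 2.80-fold and the glycogen synthase gene Gys1 2.32-fold. Ulk1, the autophagy kinase that AMPK and mTORC1 both phosphorylate, stood at 78 ± 4.17 and 83.9 ± 16.8 CPM (adjusted p = 0.618).

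Adenylate kinases and AMP deaminases set the AMP level that gamma subunits read. Of 9 such genes 4 fell, Ak4 rose and 4 did not pass, and with library totals alone 2 fell and 2 rose. Among all genes 21.8% fell and 24.8% rose. In the fit with library totals alone, 11.0% of all 15347 genes fell and 5787 rose. The median of these 9 genes, 0.35, rests on single libraries, being -0.69 without Beclin1_KO replicate 1, -0.069 without WT replicate 1 and 0.041 without the most muscle-rich library of either group. Ak3, a mitochondrial adenylate kinase, fell 2.32-fold, from 438 ± 67.2 to 189 ± 44.9 CPM. Ampd2, an AMP deaminase, was 1.68-fold lower (adjusted p = 0.00222), though not with library totals alone (adjusted p = 0.0525). Leaving out single libraries took the adjusted p of Ak4 to 0.0771 (WT replicate 1), 0.0728 (WT replicate 2), 0.0635 (Beclin1_KO replicate 1) and 0.072 (Beclin1_KO replicate 2), and leaving out the most muscle-rich library of either group took it to 0.147.

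**Figure D5:**
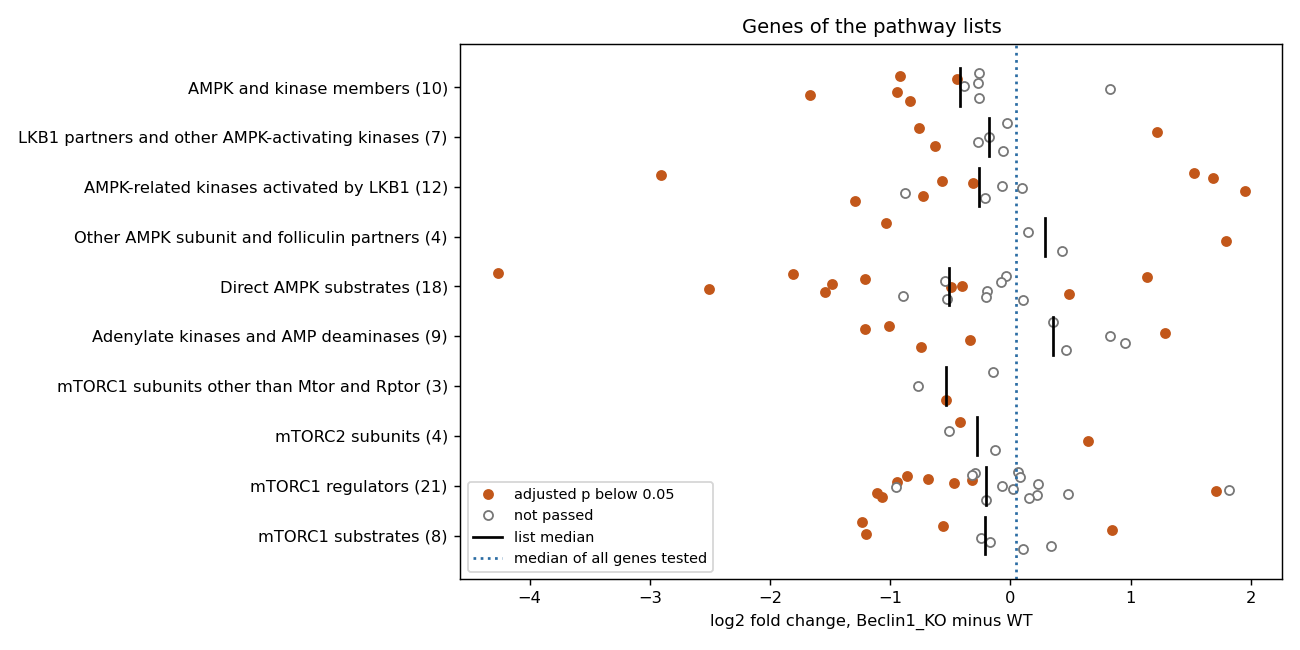
Log2 fold change (horizontal axis, Beclin1_KO minus WT) of each gene in the pathway lists, with the number tested in brackets, filled where the adjusted p was below 0.05. Black bars are list medians, from -0.54 for the 3 further mTORC1 subunits to 0.35 for the adenylate kinases and AMP deaminases, and the dotted line is the median of all genes, 0.050.

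Across the 6 libraries the genes most like Prkaa1 in log2 CPM, among 11116 others with a mean of at least 5 CPM, were Tm2d1, 1810011O10Rik and 1110008F13Rik, each with a Pearson r of 0.999. Such likeness was common, since 2370 genes had an r above 0.9 to Prkaa1. Prkaa2 was most like Tpi1 (r = 0.989), Zfp106 (0.985) and Fkbp3 (0.975), and 34 genes had an r above 0.9 to it. These values describe 6 points that share 2 genotypes and, for Prkaa2, the muscle-rich libraries.

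The 250 bases before each start in the RefSeq promoter table for GRCm38 were searched on both strands for 8 motifs. The table lists 12 starts for the 10 members, 3 of them for Prkag2. Listed starts need not lie at the end of the gene span given above. Those of Prkag2 all lie inside its span. The windows of Stk11, Prkab1 and Camkk2 run into their spans, and that of Prkab2 ends on the base where its span starts. CCAAT, the letters bound by the factor NF-Y, was found in 5 of the 12 windows, against 33.8% of all 32851 windows in the table, which is a description and no enrichment. These were the windows of Prkag1, Stk11 and Mtor and 2 of the 3 of Prkag2, while those of the other 6 members, Prkaa1 among them, held none. GGGCGG, the letters bound by SP1, was found in 8 of the 12 windows (32.7% of all windows), CCGGAAG in 3, those of Prkag1, Prkab1 and Mtor (6.91%), and AAGGTCA, the letters read by estrogen-related receptors, in the middle start of Prkag2 (4.08%). None of the 12 windows held the E-box CACGTG (6.02% of all windows), the cyclic AMP response element TGACGTCA (1.55%), the TATA box letters TATAAA (12.4%) or the NRF1 motif (0.782%). The 5 windows with a CCAAT match are printed to show where in each the letters lie. They run 5′ to 3′ on the gene's strand, with CCAAT on either strand in capitals, and adjoining capitals in Prkag2 are matches on both strands that share bases.
Prkag1, chr15:98831509-98831758, minus strand: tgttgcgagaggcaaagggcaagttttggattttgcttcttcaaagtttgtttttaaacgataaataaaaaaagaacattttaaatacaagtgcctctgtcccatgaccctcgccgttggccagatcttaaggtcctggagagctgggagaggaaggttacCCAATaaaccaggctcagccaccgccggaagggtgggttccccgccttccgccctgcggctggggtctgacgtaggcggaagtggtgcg
Prkag2 outermost of the 3 listed starts, chr5:25100643-25100892, minus strand: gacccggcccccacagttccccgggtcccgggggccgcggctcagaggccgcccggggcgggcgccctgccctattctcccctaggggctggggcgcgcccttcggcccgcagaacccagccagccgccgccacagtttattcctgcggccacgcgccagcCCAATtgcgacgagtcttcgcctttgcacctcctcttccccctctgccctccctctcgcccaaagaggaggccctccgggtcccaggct
Prkag2 middle listed start, chr5:24995754-24996003, minus strand: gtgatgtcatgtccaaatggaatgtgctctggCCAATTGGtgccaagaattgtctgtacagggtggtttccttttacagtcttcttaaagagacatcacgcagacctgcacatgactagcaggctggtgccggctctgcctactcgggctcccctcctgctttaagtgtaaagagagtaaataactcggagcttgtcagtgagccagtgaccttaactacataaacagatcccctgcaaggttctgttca
Stk11, chr10:80115545-80115794, plus strand: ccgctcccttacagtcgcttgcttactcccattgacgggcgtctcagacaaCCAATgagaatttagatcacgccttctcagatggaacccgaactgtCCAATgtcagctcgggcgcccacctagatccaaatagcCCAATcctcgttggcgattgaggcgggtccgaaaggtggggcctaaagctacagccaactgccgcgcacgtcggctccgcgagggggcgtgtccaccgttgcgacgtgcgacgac
Mtor, chr4:148448332-148448581, plus strand: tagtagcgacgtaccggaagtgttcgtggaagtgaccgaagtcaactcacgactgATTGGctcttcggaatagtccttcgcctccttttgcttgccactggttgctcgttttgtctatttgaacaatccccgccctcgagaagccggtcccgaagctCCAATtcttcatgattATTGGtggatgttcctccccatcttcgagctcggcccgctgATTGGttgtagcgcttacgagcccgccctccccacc
Mtor holds 4 matches and Stk11 3. The counts are per gene, so the use of each Prkag2 start was not measured.

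In the authors' deposited table, the signed fold changes of the members had the same order at the low end, with Prkag2 at -3.18, Prkag1 at -1.92, Mtor at -1.89, Stk11 at -1.78 and Prkaa1 at -1.36. In the authors' deposited table these 5 members have an adjusted p below 0.05.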

How the data were processed

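RNA of interscapular brown fat from 3 WT and 3 Beclin1_KO mice was sequenced from TruSeq Stranded mRNA libraries, per the labels' protocols. The submitters' processing notes name HISAT2 2.1.0, StringTie 1.3.4d, DESeq2 and the build mm10. Which gene annotation was used, how reads with several positions were treated and whether counting used the strand are not given in the sources used here. Per gene, the authors deposited whole-number read counts without normalization, and FPKM (fragments scaled by transcript length and depth). Their own comparison, also deposited, holds a signed fold change (a score, negative where the knockout is lower) and unadjusted and adjusted p-values. A further 6 per-sample columns of unstated transformation were not used.

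The count test was edgeR 4.0.16 under R 4.3.3 (filterByExpr, TMM factors between 0.828 and 0.935 for WT and between 1.09 and 1.19 for Beclin1_KO, robust quasi-likelihood fit, genotype only), with p adjusted over 15347 genes by the Benjamini-Hochberg method. The fit was also run on simulated counts whose dispersion was set below the common dispersion of 0.11 in these data. That run therefore does not show how the fit behaves at the noise of these data. The SE is the log2 fold change over the square root of F. Alternatives were RLE, upper-quartile or no composition scaling, DESeq2 1.42.0, voom, limma 3.58.1 with a trend on log2(FPKM + 1) or log2(FPKM + 0.1) (filtered at FPKM 1 in 3 samples, or unfiltered), no count filter, a minimum of 1 CPM throughout a group, dispersion not made robust, a replicate block, leaving out each library, and leaving out the most muscle-rich library of either group. Ratios of FPKM within a library were compared by exact permutation over libraries. Positions and sequences before starts came from RefSeq (GRCm38.p6, the assembly behind mm10), matched for all 10 members, and exon overlaps from GENCODE M21.

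The members and lists were chosen with earlier results of these data known. Up to 4 genes per list with the smallest p were named, and any other gene named beside a list (such as Sesn1, Tsc2 and Ulk1) was chosen after its values were seen. Of the listed symbols, Castor1 and Trac were not matched. The design text calls the samples biological replicates. Values of some listed genes are not reported here.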

Additional observations from a re-analysis of the deposited data

How the results depend on the processing

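Prkag1, Prkag2 and Stk11 fell in all 19 alternatives, with log2 fold changes of -1.02 to -0.58, -1.87 to -1.18 and -0.88 to -0.48. The number of members that passed was 5 in the fit reported and 3 without composition scaling, on log2(FPKM + 1) with or without a filter, on log2(FPKM + 0.1) and without the most muscle-rich library of either group, and it was 4 to 6 when each library was left out. The number of all genes that passed was 7150 (46.6%), and 5548 to 7229 when each library was left out. Without the most muscle-rich library of either group 4914 genes (31.8%) passed. Of 33 named genes that passed, 19 passed in every alternative that tested them.

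Without composition scaling, on log2(FPKM + 1) and on log2(FPKM + 0.1), the sign turned for Prkaa2 (0.071, 0.061 and 0.083), Camkk2 (0.091, 0.12 and 0.13) and Rptor (0.091, 0.080 and 0.088), and log2(FPKM + 1) without a filter gave 0.061, 0.12 and 0.080. Camkk2 also turned without the most muscle-rich library of either group (0.20). When each library was left out, Prkaa2 ranged from -0.77 to 0.16 and Camkk2 from -0.46 to 0.085. The difference in the log2 ratio of Prkaa2 to Prkaa1, 0.18, ranged from -0.24 to 0.58 when each library was left out, and turned without WT replicate 1 (-0.19) or Beclin1_KO replicate 1 (-0.24). The cause was not tested.

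Same-numbered libraries of both groups had deviations from their group means that correlated at -0.309, 0.07 and 0.276. Differently numbered libraries ranged from -0.488 (WT replicate 2 with Beclin1_KO replicate 3) to 0.459 (WT replicate 2 with Beclin1_KO replicate 1). With 3 libraries a group, these values cannot decide whether the numbers pair animals, which the sources used here do not state. With the replicate number as a block, 6403 genes and 5 members passed and no member's call changed, while the call of Ak4 was lost (adjusted p = 0.0745). The paired exact sign-flip test gave p = 0.25 for the log2 ratio of Prkag2 to Prkag1, the smallest that 3 pairs can give. With 3 libraries a group, ratios cannot reach 0.05 by exact tests, and Prkag3, with 16 to 581 counts per library, rests on few counts.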
